A study of Mus musculus with 13 samples.

Results

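The genes described here encode the subcortical maternal complex, a protein assembly that lies beneath the membrane of growing mouse oocytes and early embryos. They were picked by name: Nlrp5, Ooep, Tle6, Khdc3, Padi6, Nlrp2, Nlrp4f and Zbed3, 8 of the 23235 entries of a deposited expression table. Of these, 7 were found by symbol, and Khdc3 was found under its older symbol 2410004A20Rik, which RefSeq lists as a synonym. All 8 passed a filter on low values (2 or more of the 4 columns with a value of 1 or above), as did 14240 entries in all.

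The study measured polyadenylated RNA in oocyte nuclei and cytoplasms, parted by micromanipulation, with or without the RNA helicase MTR4. Its groups are MTR4-null nuclei at day 21 (2 libraries), MTR4-null cytoplasms at day 21 (2), WT nuclei at days 14 and 21 (2 and 3) and WT cytoplasms at days 14 and 21 (2 and 2), each library made from 10 nuclei or cytoplasms by Smart-seq2, a low-input method primed on poly(A) tails. The sources used here do not give the strain, the mouse line or how the allele was removed. The table holds 1 value per gene for each genotype and compartment, as the authors' value over an unstated set of libraries, so no spread between libraries, standard deviation or test could be given for any difference. The WT columns name no day, so that genotype and age cannot be told apart. In pooled nuclei or cytoplasms, fewer oocytes holding a transcript and fewer copies in each cannot be told apart either.

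MTR4 unwinds RNA in the nucleus and feeds it to the exosome, the complex that degrades RNA from its 3' end. The subcortical maternal complex is made in oocytes, stored, and used after fertilization. In mice, embryos of mothers that lack core proteins such as NLRP5 stop dividing soon after the zygote stage. NLRP5 (MATER), OOEP (FLOPED) and TLE6 form its core, with KHDC3 (FILIA) bound to it. PADI6 is required for the cytoplasmic lattices, the fibres in which oocytes hold maternal proteins. NLRP2, NLRP4F and ZBED3 are partners described in mouse oocytes, and ZBED3 takes part in the even cleavage of the zygote.

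The 4 columns were not on a common scale. The sources used here do not say how they were scaled, and read depth is unknown. Quantities that compare genes inside a column do not depend on that scale and are given first. Differences between columns are given relative to the median gene, with a scaling factor per column, namely the median over genes of that column's value over the gene's geometric mean, and on the log2 scale after adding 1. Skiv2l2, which encodes MTR4, had 3.54 in null nuclei against 13.3 in WT nuclei, and 4.36 in null cytoplasms against 187 in WT cytoplasms. Of 9 oocyte markers, such as Zp3 and Gdf9, all were at least 1 in every column, and together they held 1.26% of the total of null nuclei, 1.54% of WT nuclei, 1.98% of null cytoplasms and 2.33% of WT cytoplasms. Of 12 markers of the granulosa, the follicle cells that enclose an oocyte, 3 were at least 1 in null nuclei, 3 in WT nuclei, 12 in null cytoplasms and 10 in WT cytoplasms. These granulosa markers held 0.00146% of the total of null nuclei, 0.00282% of WT nuclei, 0.00879% of null cytoplasms and 0.00660% of WT cytoplasms. In null nuclei 4 of them (Inha, Foxl2, Fst and Inhbb) were at 0, in WT nuclei 2 (Amh and Amhr2), and in the cytoplasms 0. The part of other cells in the results below was not tested.

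All 8 genes were abundant in every column. Together they held 1.26% of the total value of null nuclei, 1.38% of WT nuclei, 2.04% of null cytoplasms and 1.85% of WT cytoplasms. Among the 14240 kept genes, the 300 with the highest values included 6 of the 8 in each of the 4 columns. The values carry the per-length unit FPKM by the table's name, so that levels of genes inside a column can be compared, though without an error. How the values of very short transcripts were treated is not given.

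**Figure D1:**
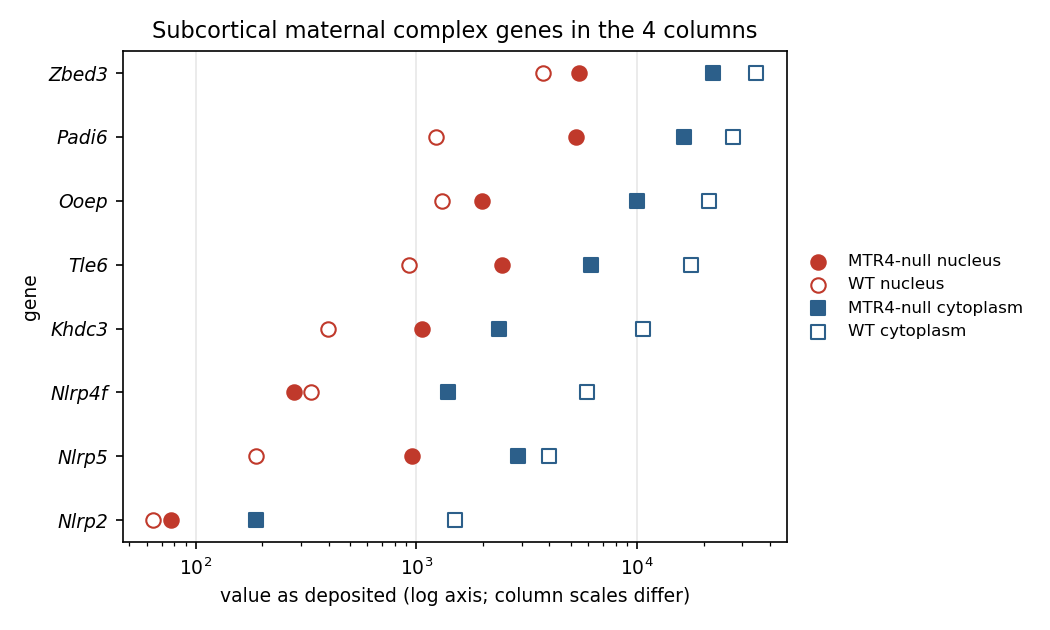
Deposited value (log axis) of each of the 8 genes in MTR4-null nuclei (filled circles), WT nuclei (open circles), MTR4-null cytoplasms (filled squares) and WT cytoplasms (open squares). Zbed3 has the highest value of the 8 and Nlrp2 the lowest in every column; horizontal gaps between columns include the unknown column scales.

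The core genes are described before the partners. Nlrp5 encodes a large leucine-rich-repeat protein of the NLR family on which the complex is built. It had 953 in null nuclei and 188 in WT nuclei, and 2883 in null cytoplasms and 3995 in WT cytoplasms. Its rank by value among kept genes was 205 in null nuclei against 521 in WT nuclei, and 155 in null cytoplasms against 304 in WT cytoplasms, so that it stood higher in both null columns.

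Ooep encodes a small protein with a KH-like fold. Its value was 1979 in null nuclei and 1299 in WT nuclei, and 10004 in null cytoplasms and 21177 in WT cytoplasms. The ranks were 104 in null nuclei against 46 in WT nuclei, but 25 in null cytoplasms against 27 in WT cytoplasms, where they nearly met. Tle6, a relative of the Groucho corepressors, had 2453 in null nuclei and 924 in WT nuclei, with ranks of 86 in null and 68 in WT. In the cytoplasm Tle6 had 6183 in null and 17568 in WT, and its rank was 50 in null against 35 in WT. Khdc3, whose protein is a KH-domain partner of the core, had 1063 in null nuclei and 395 in WT nuclei, and 2363 in null cytoplasms and 10591 in WT cytoplasms. Its rank was 184 in null nuclei against 225 in WT nuclei and 204 in null cytoplasms against 76 in WT cytoplasms, and thus higher in the null nucleus and lower in the null cytoplasm.

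Padi6 belongs to the peptidylarginine deiminases, enzymes that turn arginine into citrulline, although PADI6 itself is not known for that activity. Values of Padi6 were 5312 in null nuclei, 1225 in WT nuclei, 16305 in null cytoplasms and 27132 in WT cytoplasms. Its rank was 35 in null nuclei against 49 in WT nuclei, and 7 in null cytoplasms against 17 in WT cytoplasms. Like Nlrp5, it stood higher in both null columns.

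Nlrp2 had the lowest values of the 8, with 77.2 in null nuclei, 64.0 in WT nuclei, 187 in null cytoplasms and 1495 in WT cytoplasms. Its rank was 2124 in null nuclei against 1527 in WT nuclei and 2645 in null cytoplasms against 882 in WT cytoplasms. Nlrp4f had 278 in null nuclei, 334 in WT nuclei, 1388 in null cytoplasms and 5938 in WT cytoplasms. It ranked 686 in null nuclei against 285 in WT nuclei and 391 in null cytoplasms against 181 in WT cytoplasms. Both partners thus stood lower in the null columns. Zbed3, a zinc-finger gene, had 5467 in null nuclei, 3759 in WT nuclei, 22057 in null cytoplasms and 34760 in WT cytoplasms. It ranked 32 in null nuclei against 7 in WT nuclei, and 4 in null cytoplasms against 11 in WT cytoplasms.

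The order of the 8 inside each column ran from Zbed3 down to Nlrp2, but differed between columns in the middle. Padi6 followed Zbed3 in null nuclei, null cytoplasms and WT cytoplasms, while Ooep (1299) lay above Padi6 (1225) in WT nuclei. Zbed3 and Padi6 lay close in null nuclei, where the value of Padi6 was 0.972 times that of Zbed3, against 0.326 times in WT nuclei. Nlrp5 lay below Nlrp4f in both WT columns and above it in both null columns. Without replicates, it is unknown which of these neighbours differ beyond the spread between libraries.

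Each gene was also taken as a share of the summed values of the 8. Zbed3 made up 31.1% of that sum in null nuclei against 45.9% in WT nuclei, and 35.9% in null cytoplasms against 28.3% in WT cytoplasms. For Padi6 the shares were 30.2% in null nuclei against 15.0% in WT nuclei, and 26.6% in null cytoplasms against 22.1% in WT cytoplasms. Nlrp5 held 5.42% in null nuclei against 2.30% in WT nuclei and 4.70% in null cytoplasms against 3.26% in WT cytoplasms. Nlrp4f went the other way, with 1.58% in null nuclei against 4.08% in WT nuclei and 2.26% in null cytoplasms against 4.84% in WT cytoplasms.

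**Figure D2:**
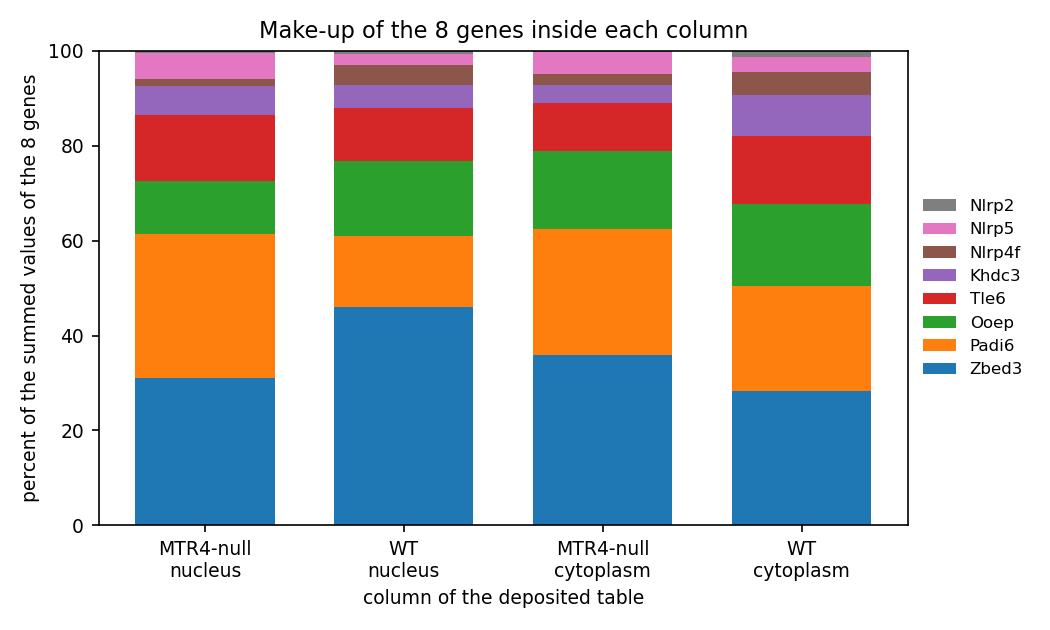
Stacked bars give each gene's percent of the summed deposited values of the 8 genes inside each column (MTR4-null nucleus, WT nucleus, MTR4-null cytoplasm, WT cytoplasm). Padi6 takes 30.2% of the sum in null nuclei against 15.0% in WT nuclei, and Zbed3 takes 45.9% in WT nuclei.

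Ratios of members to each other made the same contrast without any column scale. The value of Nlrp5 was 3.43 times that of Nlrp4f in null nuclei against 0.564 times in WT nuclei, and 2.08 times in null cytoplasms against 0.673 times in WT cytoplasms. Nlrp5 was 12.4 times Nlrp2 in null nuclei against 2.94 times in WT nuclei, and 15.5 times in null cytoplasms against 2.67 times in WT cytoplasms. Nlrp5 and Padi6, by contrast, kept a nearly fixed ratio: 0.179 in null nuclei, 0.154 in WT nuclei, 0.177 in null cytoplasms and 0.147 in WT cytoplasms. In the core, the ratio of Tle6 to Khdc3 was 2.31 in null nuclei and 2.34 in WT nuclei, but 2.62 in null cytoplasms and 1.66 in WT cytoplasms.

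The comparison of null with WT nuclei asked which transcripts differ in the nucleus without MTR4. Relative to the median gene, Nlrp5 was 2.37-fold higher in null nuclei (log2 difference 1.24) and Padi6 2.03-fold higher (1.02). Nlrp4f was lower, with a log2 difference of -1.36. The other 5 lay within 2-fold, from -0.82 for Nlrp2, -0.55 for Zbed3 and -0.49 for Ooep to 0.31 for Tle6 and 0.33 for Khdc3. Thus 2 of 8 were at least 2-fold higher and 1 of 8 at least 2-fold lower, where 25.8% of the 14240 kept genes were higher and 16.2% lower. The median over the 8 was -0.086, against 0.055 over all kept genes and -0.38 over the 1532 kept genes at least as abundant as Nlrp2, the lowest of the 8 by the mean of the 4 rescaled values. As deposited, 4 of 8 were at least 2-fold higher and 0 lower, against 46.3% and 3.69% of kept genes. With column factors read from the digits of the values divided out, 0 of 8 were at least 2-fold higher and 4 lower, against 15.4% and 43.2% of kept genes. Nlrp5 and Padi6 were above 0 under each scaling, but by 0.34 and 0.12 with those factors. The direction of 5 others turned with the scale: Nlrp2 (0.27), Ooep (0.61) and Zbed3 (0.54) lay above 0 as deposited, and Tle6 (-0.59) and Khdc3 (-0.57) below 0 with the factors. Nlrp4f was lower under each scaling, with -0.26 as deposited and -2.26 with those factors. Padi6 lay just past 2-fold, and its relative difference was 0.44 under quantile normalization, a rank-based scaling.

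In null cytoplasms, set against the median gene, 0 of the 8 were higher by 2-fold or more and 3 were lower. Nlrp2 had a log2 difference of -2.09, Khdc3 of -1.26 and Nlrp4f of -1.19. Tle6 (-0.60), Ooep (-0.18), Padi6 (0.17), Zbed3 (0.25) and Nlrp5 (0.44) lay within 2-fold. Among kept genes 24.2% were higher and 18.6% lower. The median of the 8 was -0.39, against 0.055 for all kept genes and -0.49 for the 1532 abundant genes, of which 15.3% were higher and 27.0% lower. As deposited, all 8 values were lower in null cytoplasms, 5 of them at least 2-fold and 0 higher, against 43.7% lower and 14.9% higher over kept genes.

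**Figure D3:**
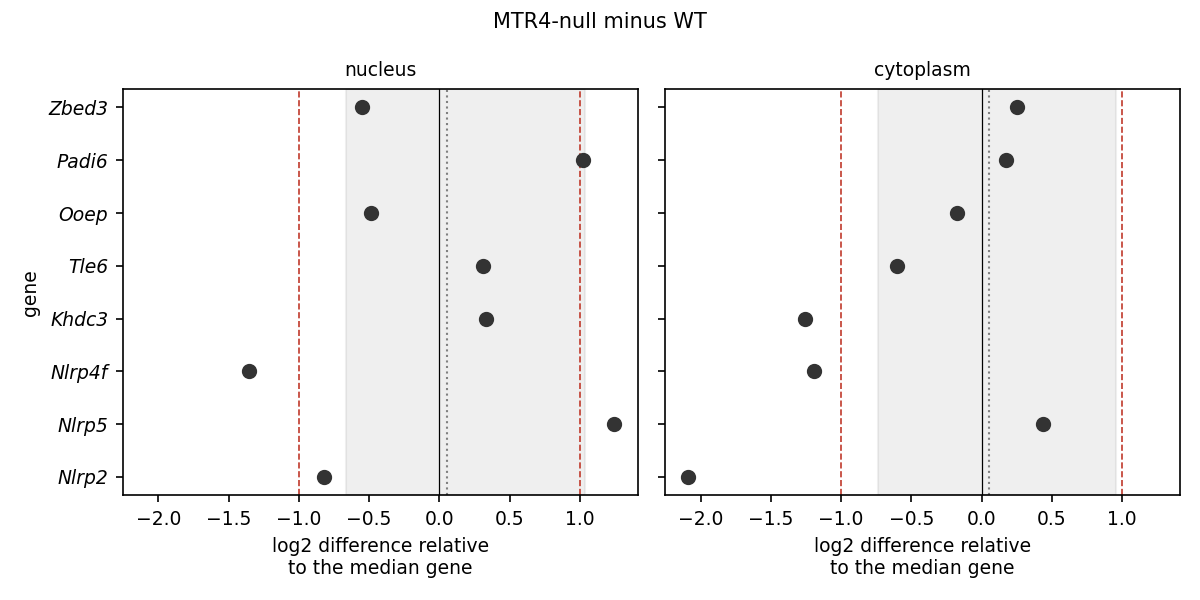
Log2 difference between MTR4-null and WT, relative to the median gene, for each of the 8 genes in the nucleus (left) and cytoplasm (right). Dashed lines mark 2-fold, the grey band the middle 50% of all kept genes and the dotted line their median; Nlrp5 lies highest of the 8 in both panels (1.24 and 0.44), Nlrp4f lowest in the nucleus (-1.36) and Nlrp2 lowest in the cytoplasm (-2.09).

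The promoters of 4 genes are shown because these lay furthest apart in the difference between null and WT nuclei relative to the median gene. Among the genes of the complex, null minus WT was highest for Nlrp5 and Padi6 and lowest for Nlrp4f and Nlrp2. Each run gives 250 bases before to 50 bases after a RefSeq start on build GRCm38.p6, at chr7:23385639-23385938 (plus strand) for Nlrp5, chr4:140742594-140742893 (minus) for Padi6, chr13:65205667-65205966 (minus) for Nlrp4f and chr7:5350986-5351285 (minus) for Nlrp2. The table itself gives no coordinates, and its build was mm9, per the submitters' processing notes. Capitals mark CANNTG (the E-box, the motif that the oocyte factor FIGLA binds) and TAATTG (bound by the oocyte factor NOBOX), on either strand. 
Nlrp5 promoter: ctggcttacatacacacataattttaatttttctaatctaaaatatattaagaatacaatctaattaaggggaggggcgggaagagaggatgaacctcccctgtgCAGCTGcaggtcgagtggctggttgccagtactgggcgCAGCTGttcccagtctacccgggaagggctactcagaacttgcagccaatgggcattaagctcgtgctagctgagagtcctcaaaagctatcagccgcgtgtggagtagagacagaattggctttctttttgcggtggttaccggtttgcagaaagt
Padi6 promoter: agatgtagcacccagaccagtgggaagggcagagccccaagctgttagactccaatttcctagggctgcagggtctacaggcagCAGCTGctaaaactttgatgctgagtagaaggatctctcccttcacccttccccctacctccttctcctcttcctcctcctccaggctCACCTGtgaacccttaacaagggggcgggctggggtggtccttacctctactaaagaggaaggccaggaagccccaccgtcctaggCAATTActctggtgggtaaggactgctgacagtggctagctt
Nlrp4f promoter: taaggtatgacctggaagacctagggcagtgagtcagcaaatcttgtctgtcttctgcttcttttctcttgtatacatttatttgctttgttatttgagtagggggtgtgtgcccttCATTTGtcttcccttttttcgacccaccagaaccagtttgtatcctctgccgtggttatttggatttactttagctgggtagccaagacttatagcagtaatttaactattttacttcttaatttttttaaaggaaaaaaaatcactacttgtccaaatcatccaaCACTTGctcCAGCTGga
Nlrp2 promoter: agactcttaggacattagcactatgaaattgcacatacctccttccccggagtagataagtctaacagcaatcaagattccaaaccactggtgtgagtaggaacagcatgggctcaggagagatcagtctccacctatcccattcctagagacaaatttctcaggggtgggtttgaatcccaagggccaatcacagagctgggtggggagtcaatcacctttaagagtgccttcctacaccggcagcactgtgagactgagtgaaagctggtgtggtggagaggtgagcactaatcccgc

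CANNTG was present in the windows of 7 of the 8 genes and absent from that of Nlrp2, while 72.3% of 32851 RefSeq promoter windows of the same length held it. TAATTG was present for 2 of the 8, Padi6 and Ooep, against 8.0% of all windows. TATAAA was present for 0 of the 8, against 13.6% of all windows. No pair of these motifs overlapped in a window of the 8, except that CANNTG overlapped itself in that of Khdc3. All 8 genes had a window in the RefSeq table. Relative to the median gene, Figla itself was higher in null cytoplasms (log2 difference 0.69) and Nobox lower (-2.40). As deposited both were lower there, so that the direction of Figla rests on the scale. Figla had 756 in null and 877 in WT cytoplasms, and Nobox 646 in null and 6401 in WT cytoplasms. In nuclei Figla had 202 in null and 35.9 in WT, and Nobox 254 in null and 216 in WT. Relative to the median gene, Figla was higher in null nuclei (1.39) and Nobox lower (-0.86), so that the direction of Nobox there rests on the scale.

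The comparison of nucleus with cytoplasm asked which transcripts each compartment held. In null oocytes 0 of the 8 were 2-fold apart between nucleus and cytoplasm relative to the median gene, where 12.4% of kept genes were higher in the nucleus and 8.83% lower. Values ran from -0.70 for Ooep, -0.68 for Nlrp4f and -0.37 for Zbed3 to 0.30 for Tle6, 0.36 for Nlrp2 and 0.48 for Khdc3, with Nlrp5 (0.04) and Padi6 (0.02) near 0. Their median was 0.030, against -0.0086 for all kept genes. As deposited, all 8 were at least 2-fold lower in the nucleus, as were 71.9% of kept genes, and 2.91% were higher.

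In WT oocytes, 7 of the 8 were lower in the nucleus relative to the median gene, and Zbed3 was higher (log2 difference 0.43). Khdc3 passed 2-fold at -1.11, and the others were Nlrp2 (-0.91), Padi6 (-0.83), Nlrp5 (-0.77), Tle6 (-0.61), Nlrp4f (-0.51) and Ooep (-0.39). So 1 of 8 was at least 2-fold lower and 0 higher, against 7.46% and 9.73% of kept genes. Their median was -0.69, against -0.10 for all kept genes and -0.26 for the 1532 abundant genes. Other oocyte lists described below also had medians below 0. These were -0.69 for other oocyte Nlrp genes, -0.97 for oocyte transcription factors, -0.45 for oocyte markers and -0.32 for other maternal-effect genes. Medians were also below 0 for granulosa markers (-0.21), genes of lattice proteins or binding partners (-0.083) and KH-domain relatives (-0.038). The other Padi, Tle and Zbed genes had medians above 0, although 2 of the 4 Padi genes lay below 0. With the digit factors divided out, the medians of the Tle (-0.20) and Zbed genes (-0.21) were below 0. As deposited, all 8 genes of the complex were at least 2-fold lower in the nucleus, as were 91.2% of kept genes, while 1.74% were higher.

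**Figure D4:**
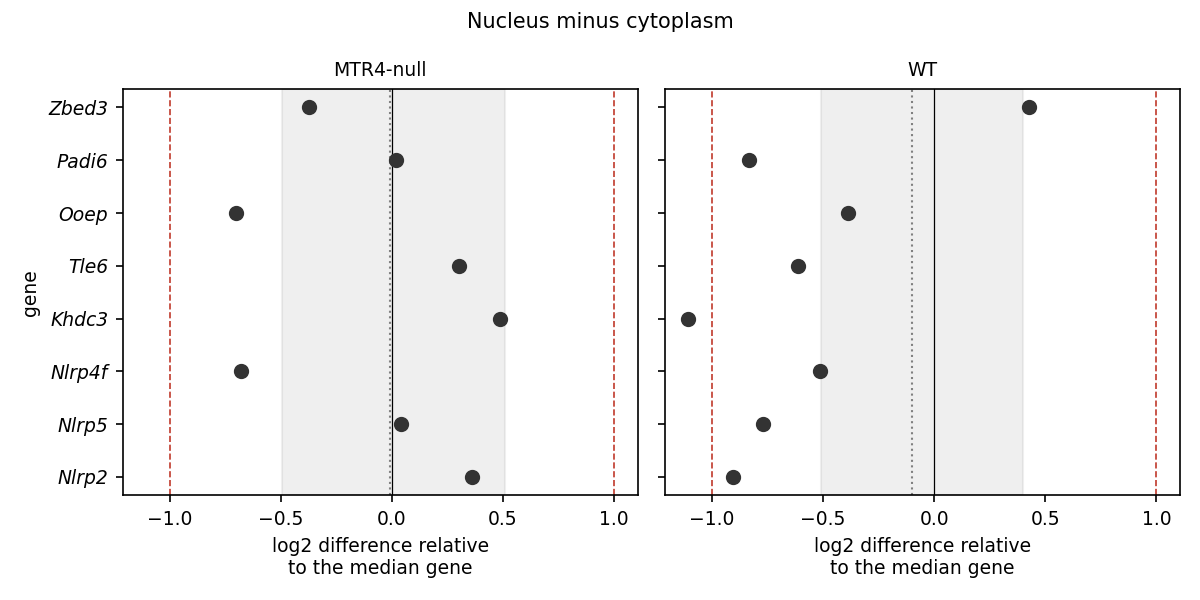
Log2 difference between nucleus and cytoplasm, relative to the median gene, for the 8 genes in MTR4-null (left) and WT oocytes (right). Dashed lines mark 2-fold and the grey band the middle 50% of kept genes. In WT 7 of 8 lie below 0 and Zbed3 lies at 0.43. In null 5 of 8 lie above 0, of which Nlrp5 (0.04) and Padi6 (0.02) lie near 0. In null, 2 of 8 lay above 0 under quantile normalization, and 0 as deposited or with the digit factors divided out. How many of all kept genes lie on each side of 0 was not counted.

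Between genotypes, the difference of nucleus and cytoplasm exceeded that of WT in null oocytes by 1.59 for Khdc3 and 1.27 for Nlrp2 on the relative log2 scale. Tle6 (0.91), Padi6 (0.85) and Nlrp5 (0.81) came next, Nlrp4f (-0.17) and Ooep (-0.31) lay near 0, and Zbed3 had -0.80. Thus 2 of 8 passed 2-fold upward and 0 downward, against 16.9% and 15.3% of kept genes. As deposited, all 8 passed 2-fold upward, against 71.7% of kept genes upward and 3.32% downward. With the digit factors divided out and the WT cytoplasm factor read as 1, 0 of 8 passed upward and 3 downward. Among kept genes 5.51% passed upward and 45.3% downward there. With the WT cytoplasm factor read as 0.5, a reading added after seeing the data, 2 of 8 passed upward and 0 downward. The percent of kept genes was not counted for that reading. The direction of this difference thus rests on the scaling. A factor per column shifts all genes alike and cannot change their order. Quantile normalization can, and there Khdc3 (1.34) and Nlrp2 (1.26) lay highest and Zbed3 (-1.60) lowest, while Padi6 (-0.20) lay below Tle6 (0.22) and Nlrp5 (0.38).

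Zbed3 holds 2 small nucleolar RNA genes on its own strand and outside its exons, Snora47 and Gm22661, of which the table as used here has an entry for Snora47. In the GENCODE M21 annotation of GRCm38, Zbed3 spans chr13:95323612-95337841 on the plus strand, and Snora47, of 138 bases, lies inside it at chr13:95330600-95330737 on the same strand, touching no annotated Zbed3 exon. Snora47 is an H/ACA small nucleolar RNA, a class that guides pseudouridylation. Its entry had the highest value of all kept genes in both nuclear columns, with 38257 in null nuclei and 19857 in WT nuclei, against ranks of 171 (value 2673) in null cytoplasms and 744 (1753) in WT cytoplasms. Relative to the median gene, null minus WT was -0.15 in nuclei and 1.51 in cytoplasms on the log2 scale. How the per-length values treat an RNA of 138 bases is not given, so these ranks may not compare with those of longer transcripts. Zbed3 was also the only one of the 8 that lay above 0 for WT nucleus minus WT cytoplasm on the scale of the median gene, as it did under quantile normalization (0.15). As deposited, or with the factors divided out, it was lower there like the other 7. Whether intron reads or RNA of Snora47 enter the value of Zbed3 was not tested, since the table holds no reads. The sequence of Snora47, from the GENCODE M21 transcripts, is shown because of this place in Zbed3. Its last ACA, the box of this class near the 3' end, is in capitals and is followed by 4 bases.
Snora47: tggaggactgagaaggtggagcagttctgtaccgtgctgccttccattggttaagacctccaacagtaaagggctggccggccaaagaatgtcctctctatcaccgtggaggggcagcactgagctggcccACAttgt

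The 8 genes also differ in what shares their sequence or position, which could move their values. Padi6 and Zbed3 shared none of the 31-base stretches of their longest coding transcript with another annotated gene. The overlap was 45.7% for Khdc3, all of it with Gm20509, an annotated gene on the same strand that shares its exons. For Nlrp4f it was 18.4%, of which the largest part (11.9% of its stretches) was with Nlrp4g, whose entry was at 0 in all 4 columns. For Nlrp5 it was 16.3%, mainly with Nlrp5-ps (14.1%), and for Nlrp2, Tle6 and Ooep it was 4.36%, 4.23% and 3.80%. These percents describe shared sequence and are not errors of the values. How far shared reads moved the values of Khdc3, Nlrp4f and Nlrp5 is unknown, as the authors' treatment of such reads is not given. Nlrp2 also has exons that overlap the genes Gm5065 and Gm18757 on the opposite strand. Gm5065 had 15.9 in null nuclei, 8.13 in WT nuclei, 46.9 in null cytoplasms and 92.4 in WT cytoplasms. The sources used here do not say whether strand was used, and without it reads of such a stretch cannot be told apart.

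The relatives of the 8 genes were compared by lists. Of 9 other oocyte Nlrp genes in the table, 8 were kept. In nuclei 6 of these 8 lay below 0 relative to the median gene, with a median of -0.70, and in the cytoplasm also 6, with a median of -0.83. In the nucleus 1 was at least 2-fold lower (Nlrp4e, with 43.6 in null and 68.1 in WT nuclei), in the cytoplasm 3 were, and 0 were higher in either. Those 3 were Nlrp4e (223 in null and 1058 in WT cytoplasms), Nlrp9a (348 in null and 1555 in WT) and Nlrp9c (234 in null and 1210 in WT). Among all kept genes on the same scale, 16.2% were at least 2-fold lower and 25.8% higher in nuclei, and 18.6% and 24.2% in cytoplasms. As deposited, 7 of these 8 Nlrp genes had higher values in null nuclei, so that the direction in the nucleus flips with the scale. Nlrp14, whose loss in mouse oocytes also stops early embryos, had 1630 in null and 654 in WT nuclei, and 8599 in null and 15950 in WT cytoplasms. Relative to the median gene, null minus WT for Nlrp14 was 0.22 in nuclei and 0.015 in cytoplasms. In the nucleus Nlrp2 and Nlrp4f, at -0.82 and -1.36, lay within the range of these relatives, while in the cytoplasm Nlrp2, at -2.09, lay below all 8. Nlrp5, at 1.24 in the nucleus, lay above all 8, of which Nlrp4c (17.9 in null and 4.53 in WT nuclei) had the highest difference, 0.85. These positions were not tested.

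The peptidylarginine deiminase family has 4 other members in the table. Padi1, Padi2, Padi3 and Padi4 were each at least 2-fold higher in null in both compartments, under each of the 5 scalings tried, while Padi6 passed 2-fold in the nucleus (1.02) and not in the cytoplasm (0.17), relative to the median gene. That difference from Padi6 was not tested. On that scale, 25.8% of all kept genes were at least 2-fold higher in null nuclei and 24.2% in null cytoplasms. Padi4 had 209 in null and 17.4 in WT nuclei, and 202 in null and 8.65 in WT cytoplasms. For Padi2 the values were 384 in null and 43.5 in WT nuclei, and 194 in null and 9.10 in WT cytoplasms. Padi1 was at least 1 in 1 WT column and Padi3 in 0, so both passed the filter only with their null values, and their differences were in part built in. Padi4 lies 3221 bases from Padi6 on the same strand. In WT oocytes Padi2 and Padi4 were also the members of this family with more in the nucleus than in the cytoplasm as deposited, unlike Padi6.

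**Figure D5:**
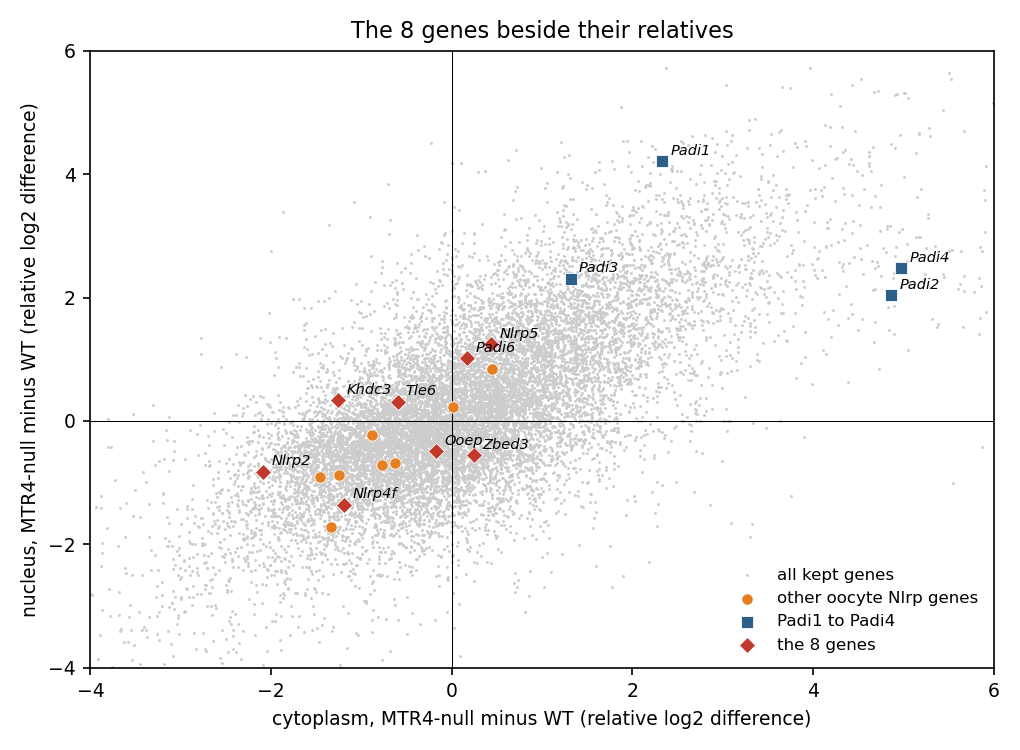
Relative log2 difference between MTR4-null and WT in the cytoplasm (horizontal) and nucleus (vertical) for the 8 genes (red diamonds), other oocyte Nlrp genes (orange circles), Padi1 to Padi4 (blue squares) and all kept genes (grey dots, 219 of them outside the plotted range). Padi1 to Padi4 lie above and to the right of Padi6, and Nlrp2 (-2.09) lies to the left of all other Nlrp genes.

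Of 4 KH-domain relatives of Ooep and Khdc3, 1 was at least 2-fold lower in null nuclei, and 1 was higher and 1 lower in null cytoplasms, relative to the median gene. Khdc1a was higher in the cytoplasm (670 in null and 150 in WT) and Khdc1c lower (10.6 in null and 176 in WT). Dppa5a, an abundant oocyte transcript, had 3823 in null and 1046 in WT nuclei (relative log2 difference 0.78). Of 4 kept Tle genes, 3 were higher in null nuclei and 3 in null cytoplasms, and none lower, on the same scale. Among them Tle2 passed the filter only with its null columns. With the factors divided out 1 Tle gene was higher and 1 lower in nuclei. The 3 kept Zbed genes included 1 higher in nuclei, namely Zbed6, under 1 in both WT columns. In cytoplasms 2 were higher (Zbed6, and Zbed4 with 92.6 in null and 70.0 in WT). With the factors divided out 1 was higher and 1 lower in nuclei. Over all kept genes 25.8% were higher and 16.2% lower in nuclei relative to the median gene, and 15.4% and 43.2% with the factors. In cytoplasms 24.2% were higher and 18.6% lower relative to the median gene. The counts of these 3 families are to be set beside those shares.

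Among 14 genes of lattice proteins or reported binding partners, 1 was at least 2-fold higher and 3 lower in null nuclei, and 2 were higher and 0 lower in null cytoplasms. Ube2d3, a ubiquitin-conjugating enzyme gene, had 481 in null and 489 in WT nuclei (relative log2 difference -1.12), and Ywhae, a 14-3-3 gene, had 200 in null and 236 in WT nuclei (-1.33). Sfn, another 14-3-3 gene, was the gene higher in both compartments, with 16.9 in null and 1.62 in WT nuclei and 41.9 in null and 14.4 in WT cytoplasms. As deposited 4 were higher and 0 lower in nuclei and 1 higher and 5 lower in cytoplasms, and with the factors divided out 1 was higher and 10 lower in nuclei, so these directions also rest on the scale. Over all kept genes 25.8% were higher and 16.2% lower in nuclei relative to the median gene, 46.3% and 3.69% as deposited, and 15.4% and 43.2% with the factors. In cytoplasms 24.2% were higher and 18.6% lower relative to the median gene, and 14.9% and 43.7% as deposited. The counts of the lists that follow are to be set beside the same shares.

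Of 21 other maternal-effect genes, whose products from the mother are needed by the embryo, 1 was higher and 3 lower in null nuclei and 1 was higher and 5 lower in null cytoplasms, relative to the median gene. Their nuclear median was -0.097, beside -0.086 for the 8 genes, and their cytoplasmic median -0.54, beside -0.39. Zfp36l2, an mRNA decay factor gene, was the gene higher in both, with 23.4 in null and 1.54 in WT nuclei and 156 in null and 9.35 in WT cytoplasms. Sebox was the furthest down in the cytoplasm, with 146 in null and 1608 in WT. As deposited 9 were higher and 0 lower in nuclei, and 1 was higher and 13 lower in cytoplasms, while with the factors divided out 1 was higher and 11 lower in nuclei. Of 7 oocyte transcription factor genes, 3 were higher and 1 lower in nuclei and 1 higher and 3 lower in cytoplasms. The gene higher in both, Sohlh1, passed the filter only with its null columns. With the factors divided out, the nuclear counts turned to 1 higher and 3 lower.

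Genes whose profile over the 4 columns lay closest to the median profile of the 8 were Phpt1, Mapkapk2, Exo1 and Rpl41, among 5909 kept genes with a mean of at least 50. Their Euclidean distances in log2 units, over the 4 column values, ran from 0.037 for Phpt1 to 0.075 for Rpl41. The 8 genes themselves lay 0.28 (Tle6) to 1.31 (Nlrp2) from that median.

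The 8 genes differ in structure as well. In GENCODE M21 their longest coding transcripts had 2 exons (Zbed3), 3 (Ooep and Khdc3), 11 (Nlrp4f), 12 (Nlrp2), 14 (Tle6) and 16 (Nlrp5 and Padi6), and their gene spans ran from 2603 bases for Khdc3 to 56034 for Nlrp5. Nlrp5 and Nlrp2 lie on chromosome 7, Nlrp4f and Zbed3 on 13, Ooep and Khdc3 on 9, Padi6 on 4 and Tle6 on 10.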

How the data were processed

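The deposited values are treated as a score: the table's name calls them FPKM, but the authors' 4 columns are not on a common scale. Per the submitters' processing notes, TopHat2 2.1.1, Cufflinks 2.2.1 and the build mm9 were used, without roles or settings. No column holds a single library, so no test was run and precision is unknown. Genes with at least 1 in at least 2 columns were kept, and each column was scaled by the median, over genes, of its value over the gene's geometric mean (divisors 0.594 for null nuclei, 0.279 for WT nuclei, 1.85 for null cytoplasms, 3.47 for WT cytoplasms), taken over kept genes above 0 in all 4 columns. Differences of log2(value + 1) were called at 2-fold; they understate changes of low genes. The filter uses the null columns too. The columns named MTR4 were taken as the MTR4-null groups, the other genotype in the labels. The genes and lists were chosen with earlier results of these data known, and named by a fixed rule: the 8 genes, up to 4 genes of each list with the largest differences (any gene of a short family) and the 5 most alike profiles, of which 1 is not reported here. Alternatives were the deposited scale, quantile normalization, column factors read from the digits of the values (0.5 for null nuclei, 0.125 for WT nuclei, 0.5 for null cytoplasms, 1 for WT cytoplasms), pseudocounts 0.1 and 10, and no filter. The digits did not settle the factor of WT cytoplasms. Of its 9618 values examined, 99.95% had the digits of a mean of 2 values with the factor at 1, and 99.94% at 0.5. The digits of a single value were found in 49.5% at 1 and 71.5% at 0.5. Python 3.11.15, numpy and pandas were used, and the scaling was tested on simulated data. Libraries of day 14 and day 21 were not compared.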

Additional observations from a re-analysis of the deposited data

Results flagged for a closer look

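Of the 8 genes, 3 went opposite ways between null and WT in the nucleus and the cytoplasm relative to the median gene. How many of all kept genes did so was not counted, so 3 of 8 cannot be set beside a general rate. The difference between the compartments' effects was 1.59 on the log2 scale for Khdc3, 0.91 for Tle6 and -0.80 for Zbed3. With 1 column per group, the difference between compartments was not tested. It depends on the scale: as deposited, Khdc3, Tle6 and Zbed3 all had higher values in null nuclei and lower values in null cytoplasms, which turns Zbed3 round in both, and under quantile normalization Tle6 was lower in both (-0.15 in the nucleus and -0.37 in the cytoplasm). With the digit factors divided out, Khdc3 (nucleus -0.57, cytoplasm -1.16) and Tle6 (nucleus -0.59, cytoplasm -0.51) were lower in both, so that neither went opposite ways.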

How the results depend on the processing

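The 4 columns' scale set most results. For null against WT nuclei the median of the 8 (-0.086) was 1.01 as deposited and -0.99 with the digit factors divided out. The WT cytoplasm factor, read as 1 or as 0.5, does not enter that comparison. The reading as 0.5 was added after seeing the data. For null against WT cytoplasms the median (-0.39) was -1.29 as deposited and -1.29 with that factor at 0.5, and 5 genes were at least 2-fold apart under both, against 3. For WT nucleus against cytoplasm the median (-0.69) was -4.32 as deposited, -1.33 with the factors and -2.33 with 0.5; the genes 2-fold apart, 1 on the main scale, were 8, 7 and 8, and 2 under quantile normalization. For null nucleus against cytoplasm the median (0.030) was -1.61 under these 3 and -0.69 under quantile normalization, with 8, 8 and 8, and 3, genes apart against 0. The difference of the compartment differences had a median of 0.83, which was 2.83 as deposited (8 genes apart against 2), 0.0073 under quantile normalization, and with the factors -0.17 (0 genes higher and 3 lower) or, with 0.5, 0.83 (2 higher and 0 lower). Of 40 single values, all stayed within 1.5-fold under pseudocounts of 0.1 and 10 and without the filter, 32 under quantile normalization, 8 under either reading of the factors and 0 as deposited. The pseudocounts could hardly move these values, since the lowest rescaled value of the 8 was 101 (Nlrp2 in null cytoplasms). All 8 passed the filter, so that leaving it out changed only the column scaling. A column factor moves all genes alike, so the counts of genes 2-fold apart are to be set beside those of all kept genes. As deposited, 91.2% of kept genes were at least 2-fold lower in the WT nucleus than in the cytoplasm, and 71.9% in the null nucleus. For the difference of the compartment differences, 71.7% were higher. Such percents were not counted for quantile normalization, for the factor of 0.5, or for nucleus against cytoplasm with the factors. Ranks, shares and ratios inside a column do not depend on a column factor. No paired analysis was possible because the table holds no column per library, and for the same reason no replicate could be left out.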
